A study of Homo sapiens with 4 samples.

Results

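The genes described here encode the proteins of the cytosolic ribosome. They were chosen by name, as genes whose symbol in the platform's probe-to-gene table is RPL or RPS followed by a digit, or RPLP0, RPLP1, RPLP2 or RPSA, without S6 kinases and pseudogenes. The rule found 57 of 16543 named genes in the table, read by 228 of 216780 probesets that carry 1 gene symbol. Of the 57, 34 are large subunit proteins or their paralogs and 21 are small subunit proteins or their paralogs. The remaining pair match the rule by spelling alone. RPS19BP1 encodes a protein that binds a ribosomal protein, and the gene listed as RPL13L now carries the RefSeq symbol RPL13P5, a pseudogene. The small subunit group counts 2 Y-linked copies, whose levels are not given. RPL3, RPL5, RPL7, RPLP1, RPLP2, RPSA and RPS27 were not analysed here.

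All 4 arrays were made from T-47D cells, an established line of luminal breast cancer grown in serum-containing medium and transfected with TurboFect reagent. On 2 Affymetrix exon arrays the cells had received a mimic of the artificial microRNA p-27-5p at 200 nM, and on the other 2 a pre-miR negative control. The labels give no dose for the control, no time from transfection to RNA, and do not say whether cultures were separate. The p-values therefore reflect array-to-array spread, which may be purely technical. The comparison asks how the artificial microRNA alters transcript levels relative to the control.

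Ribosomal proteins clothe the ribosomal RNA of both subunits, and cells make them in near-equal amounts. Their mRNAs usually begin with a run of pyrimidines, the terminal oligopyrimidine or TOP motif, through which the kinase complex mTORC1 and the RNA-binding protein LARP1 control their translation and stability. Elongation factors and several subunits of initiation factor eIF3 are encoded by mRNAs of the same class.

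Pyrimidine runs near the start of these genes can be seen in the RefSeq promoter table (build GRCh38.p14), which held 47 of the 55 ribosomal protein genes. In the 30 bases around the gene start, 15 before and 15 from it on, 32 of the 47 (68.1%) had an unbroken run of at least 8 pyrimidines, C or T, on the gene's strand, against 13.4% of 27305 promoters. On the opposite strand 1 of the 47 had such a run, against 10.8% of all promoters. The hexamer CTTTCC, which can lie inside such a run, was in 23.4% of the ribosomal protein windows on the gene's strand and in none on the other, against 1.48% and 1.15% of all promoters. The windows below, 5′ to 3′ with the longest pyrimidine run in capitals, are shown for members that were lower in the mimic arrays, for RPL36AL, which barely differed, and for RPS27L, which was higher.
RPL18: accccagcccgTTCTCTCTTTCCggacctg
RPL35: agccccgcctaCTTCCTCTTTCCCTCggag
RPL22: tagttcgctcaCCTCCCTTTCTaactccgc
RPL17: CCTCTTTCCCTaagcagcctgaggtgagtg
RPS13: ttccactctcgCTCTCCTTTCgttgcctga
RPS6: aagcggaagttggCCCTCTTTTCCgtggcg
RPL15: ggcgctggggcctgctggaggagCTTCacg
RPL36AL: ctgTTTCTTCCCTTTCCTgttaggcgagag
RPS27L: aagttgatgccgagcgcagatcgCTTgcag
The windows lie at chr19:48619164-48619193 (minus strand) for RPL18, chr9:124861943-124861972 (minus) for RPL35, chr1:6199581-6199610 (minus) for RPL22, chr18:49492451-49492480 (minus) for RPL17, chr11:17077653-17077682 (minus) for RPS13 and chr9:19380222-19380251 (minus) for RPS6. Those of RPL15, RPL36AL and RPS27L lie at chr3:23916530-23916559 (plus), chr14:49620612-49620641 (minus) and chr15:63157463-63157492 (minus). The run was 15 bases long in RPL35 and in RPL36AL, 4 in RPL15 and 3 in RPS27L, so its length did not separate lower members from the rest. A run counted anywhere in the window, so it need not be the start of the mRNA. That of RPL17 lay wholly before the listed gene start, and that of RPL15 began at base 9 from it. A run of at least 8 was found in 24 of 36 members with both mimic arrays below both control arrays and in 8 of 11 others.

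Ribosomal protein transcripts were lower in the mimic arrays by a modest and widely shared amount. Of the 57 genes, 56 passed the filter on dim probesets and were tested, the exception being a Y-linked copy. Of these, 47 had a change below 0 (mimic minus control on the log2 scale), as had 49.7% of all 15719 genes tested. The median change was -0.28 (0.00 over all genes), and the largest decrease was -0.75. In 42 of 56 the mimic arrays both lay under the control pair (29.5% of all genes), and in 2 of 56 both lay above (20.5%). The mean log2 level of the 56 genes was 8.89 and 8.87 with the mimic and 9.12 and 9.13 with the control, so the arrays of a group differed far less than the groups did. In bulk RNA, fewer cells making these transcripts and less of them per cell cannot be told apart, and array values are relative to the other RNA of the sample.

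No single member passed limma's Benjamini-Hochberg threshold of 0.05. Limma called 0 of 56 members lower (0.789% of all genes) and 0 higher (1.52%), while at an unadjusted p under 0.05 there were 22 lower (12.8%) and 1 higher, RPL39L (7.65%). The lowest adjusted p was 0.0699, for RPL8. The count lower at the adjusted threshold was 19 with a variance trend on intensity (6.79% of all genes), 9 without a filter on dim probesets (5.4%), 8 without control replicate 1 (4.5%) and 1 with quantile normalization (1.41%) or with probesets above the table's median (1.27%). At the unadjusted threshold the count was 7, 8 and 10 without mimic replicate 1, mimic replicate 2 and control replicate 2, and 11 with the brightest probeset of each gene. In the same order, those settings called 5.73%, 6.49%, 9.45% and 6.04% of all genes lower.

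**Figure D1:**
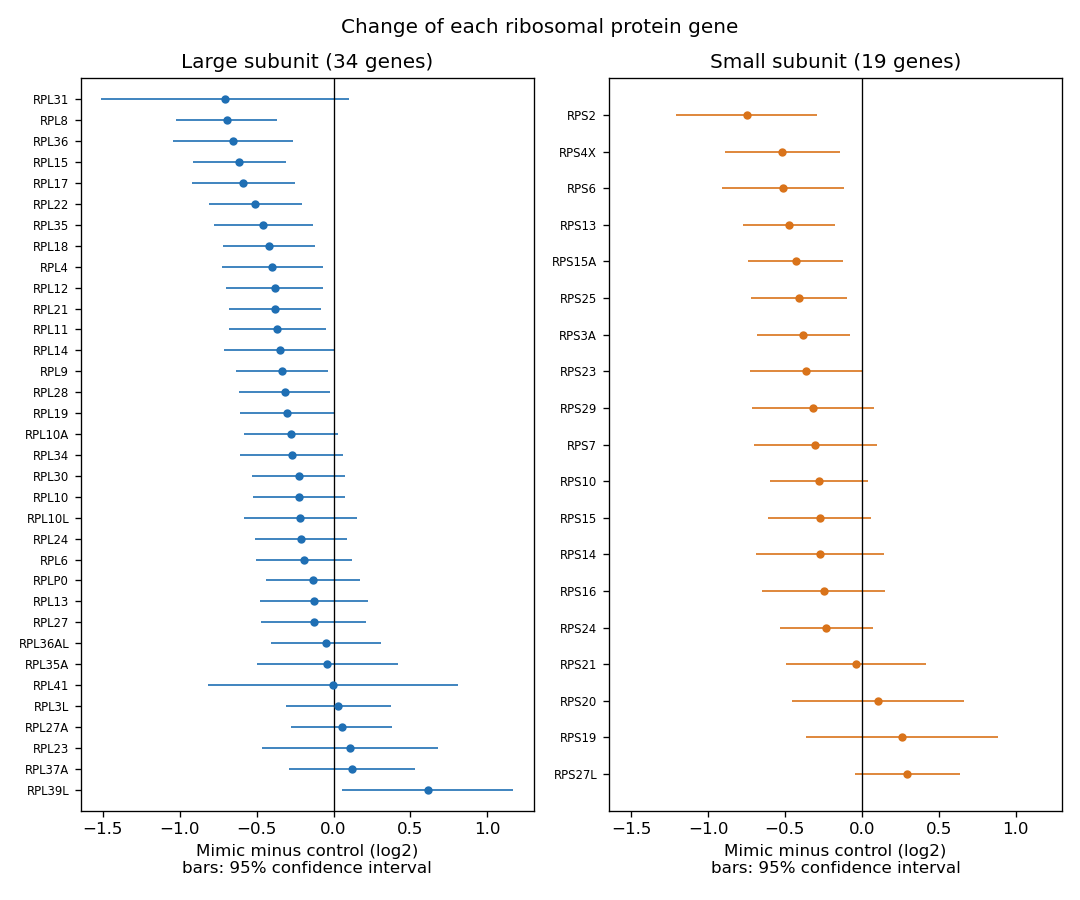
Change of each tested ribosomal protein gene, mimic minus control on the log2 scale (x axis), with limma's 95% confidence interval; the left panel has 34 large subunit genes, the right panel small subunit genes without the Y-linked copies. Most points lie left of 0 in both panels, from -0.75 for RPS2 upwards, and RPL39L and RPS27L lie furthest to the right.

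Both subunits showed the shift. Of 34 large subunit genes, 29 had a change below 0 (49.7% of all genes), 14 of them at an unadjusted p under 0.05 (12.8%), and in 25 the mimic arrays both lay under the control pair (29.5%), with a median change of -0.27. Of 20 small subunit genes tested, the counts were 16, 7 and 15, with a median of -0.29.

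Among large subunit proteins, RPL8, which sits close to the catalytic centre, had levels of 10.44 and 10.58 with the mimic and 11.14 and 11.26 with the control. Both mimic arrays lay well below both control arrays, a difference of -0.70 (SE 0.130, 95% confidence interval -1.03 to -0.37), or 1.62-fold lower, with a limma adjusted p of 0.0699. RPL15, a protein of the large subunit's core, had 11.52 and 11.57 in mimic against 12.12 and 12.19 in control arrays. The difference was -0.61 (SE 0.120, adjusted p = 0.0758), and all 3 of its probesets were lower without overlap.

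RPL17, which lies at the exit of the tunnel through which the new protein leaves, had 9.81 and 9.92 against 10.36 and 10.54, a difference of -0.59 (SE 0.132, adjusted p = 0.0981). Each of its 5 probesets was lower without overlap, by -0.15 on the brightest to -1.02, with -0.38 for the gene when the median of probesets was used. RPL35, another protein at the tunnel exit, had 10.05 and 10.04 against 10.42 and 10.59, or -0.46 (SE 0.127). That value leans on 1 dim probeset with -1.78: it was -0.19 (adjusted p = 0.401) when only probesets above the table's median counted, -0.24 with the median of probesets and -0.13 with the brightest probeset. RPL18 had 11.50 and 11.48 against 11.88 and 11.93, or -0.42 (SE 0.118), and its 7 probesets were all lower without overlap, by -0.31 to -0.56.

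RPL22, an RNA-binding protein that is also known to bind a viral RNA, had 7.71 and 7.66 with the mimic and 8.15 and 8.23 with the control. The gene value of -0.51 (SE 0.120, adjusted p = 0.106) averages a bright probeset with -0.77 and a dim probeset, near background, with -0.24. With probesets above the table's median, which leaves the bright probeset alone, RPL22 passed (-0.77, adjusted p = 0.0461). RPL36 had 5.80 and 6.02 against 6.44 and 6.69, a difference of -0.65 (SE 0.155), read by 1 dim probeset.

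In the small subunit, RPS2, a protein at the entry of the mRNA channel, had 7.70 and 7.28 with the mimic and 8.15 and 8.33 with the control. The groups did not overlap, and the difference of -0.75 (SE 0.181, adjusted p = 0.110) was the largest decrease of any member, on 1 probeset. RPS13 had 10.82 and 10.77 against 11.25 and 11.29, or -0.47 (SE 0.118). Of its 7 probesets 6 were lower without overlap, the brightest by -0.31. RPS15A had 8.80 and 8.74 against 9.25 and 9.16, or -0.43 (SE 0.121), on 1 probeset. Apart from the results named above, these members passed the adjusted threshold only in some of the settings given with the overall count, and RPL18, RPL35 and RPS15A only with the intensity trend.

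**Figure D2:**
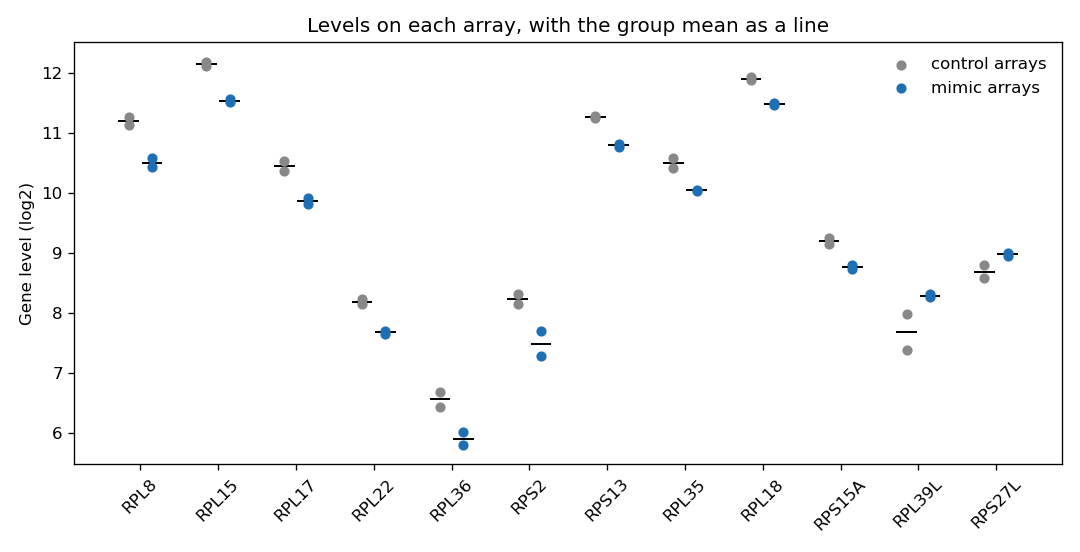
Gene level on each array (y axis, log2) for the 10 lower ribosomal proteins with the smallest p and for RPL39L and RPS27L; points are arrays, grey for control and blue for mimic, and short lines are group means. In the first 10 genes both mimic arrays lie below both control arrays, by up to -0.75 for RPS2, and in RPL39L and RPS27L both lie above.

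RPL11 and RPS6 are named for their roles in signalling. RPL11, which can bind and restrain the p53 regulator MDM2, had 11.54 and 11.53 with the mimic and 11.83 and 11.97 with the control, a difference of -0.37 (SE 0.125, adjusted p = 0.193). All 7 of its probesets were below 0 and 5 had no overlap. The lowest had -1.10, and the difference for the gene was -0.25 with the median of probesets. RPS6, the substrate of the S6 kinases, had 9.09 and 8.76 against 9.48 and 9.39, or -0.51 (SE 0.156, adjusted p = 0.161). The RPS6 value averages a bright probeset with -0.38 and a probeset at background level with -0.65. Both members passed with the intensity trend (adjusted p = 0.0367 and 0.0376).

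RPLP0, the base of the stalk that recruits translation factors, gave a mixed reading. Its gene level was 7.80 and 7.70 against 7.88 and 7.89, a difference of -0.14 (SE 0.121, adjusted p = 0.588). This is the mean of a bright probeset with -0.64 and a probeset at background level with 0.37.

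A few members stood on the other side of 0. RPL39L, the germline-enriched paralog of a tunnel protein, had 8.31 and 8.27 with the mimic and 7.98 and 7.38 with the control. Both mimic arrays were higher, by 0.61 (SE 0.220, adjusted p = 0.209), and the control arrays lay far apart. The difference was 0.92 without control replicate 1 (adjusted p = 0.00739) and 0.31 without control replicate 2, and 0.22 on its brightest probeset. Of its 4 probesets, 2 dim ones had 0.82 and 1.43 and the other two had 0.22 and -0.02. RPS27L, a p53-inducible paralog of RPS27, had 9.01 and 8.96 against 8.80 and 8.58 on 1 probeset, a difference of 0.30 (SE 0.135, adjusted p = 0.303).

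RPL36AL, a paralog of RPL36A, had 9.48 and 9.26 against 9.48 and 9.35, which overlap, and a difference of -0.05 (95% confidence interval -0.41 to 0.31). RPL3L, the striated muscle paralog of RPL3, had 5.18 and 5.13 against 5.24 and 5.02, and RPL10L, a testis paralog, had 5.67 and 5.52 against 5.93 and 5.69. Averaged over probesets both lay at background level, with differences of 0.03 and -0.22. Each had 1 brighter probeset: that of RPL3L had 7.74 and 8.02 against 7.27 and 6.92, a difference of 0.78, and that of RPL10L had 6.997 and 6.990 against 7.81 and 7.35, a difference of -0.58 (limma adjusted p over probesets 0.234 and 0.324). RPL37A and RPS19, a gene mutated in Diamond-Blackfan anaemia, had overlapping groups and differences of 0.12 (SE 0.161) and 0.26 (SE 0.247). RPL37A had 8.02 and 7.95 against 8.04 and 7.68, and RPS19 had 5.53 and 5.72 against 5.71 and 5.03. The differences of RPS19, RPL37A, RPL3L and RPL36AL changed sign in some settings and have no settled direction.

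The other lower members were close to each other in size. The 21 ribosomal proteins lower at an unadjusted p under 0.05 had changes from -0.30 to -0.75 and limma adjusted p from 0.0699 to 0.245. Beside those described, they were RPL4, RPL9, RPL12, RPL19, RPL21, RPL28, RPS3A, RPS4X and RPS25. RPL31 had -0.70 (SE 0.319) on 1 probeset, with an SD of 0.461 between mimic and 0.505 between control arrays. RPL23, RPL27, RPL27A, RPL35A, RPL41, RPS20 and RPS21 had overlapping groups and changes between -0.13 and 0.11.

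Signal over background limited some members. Liver and neuron genes, 7 of which were tested, served as a gauge and had control levels from 4.27 to 6.25. Of 54 ribosomal proteins tested, 8 lay at or below its top in the control arrays, among them RPL10, RPS4X, RPS15, RPS19 and RPL41, though their transcripts are abundant in most cells. RPL10 had 4.76 and 4.80 against 5.00 and 5.01 on 1 probeset. Of the 46 members above it, 40 had a change below 0 (49.7% of all genes), and 36 had both mimic arrays below both control arrays (29.5%). At an unadjusted p under 0.05, 20 were lower (12.8%), and the median change was -0.31. The split was made on the control level. RPL36, above the gauge in the control arrays and below its top in the mimic arrays, is therefore counted among the 46. The shares in brackets are over all genes tested, not over genes above the gauge.

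Level and change were related over the whole array, and the members' values have to be read beside that. The median change of all genes was 0.05 for genes with a mean level under 8, -0.11 from 8 to 10 and -0.17 from 10 to 12. For ribosomal proteins in the same ranges it was -0.18 (18 genes), -0.25 (11 genes) and -0.34 (25 genes). At an unadjusted p under 0.05, 15 of 25 members between 10 and 12 were lower (60%), against 162 of 672 genes at that level (24.1%). From 8 to 10 the members showed no such excess, with 2 of 11 lower (18.2%) against 20.3% of all genes. Under 8 there were 4 of 18 lower (22.2%), against 9.74%. With cyclic loess normalization, which removes a dependence on level between arrays, the members' median was -0.25 (0.03 over all genes), at an unadjusted p under 0.05 there were 20 of 56 lower (11.7% of all genes), and 39 had both mimic arrays below both control arrays (26.6%). The part that level plays in the remaining difference was not tested.

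**Figure D3:**
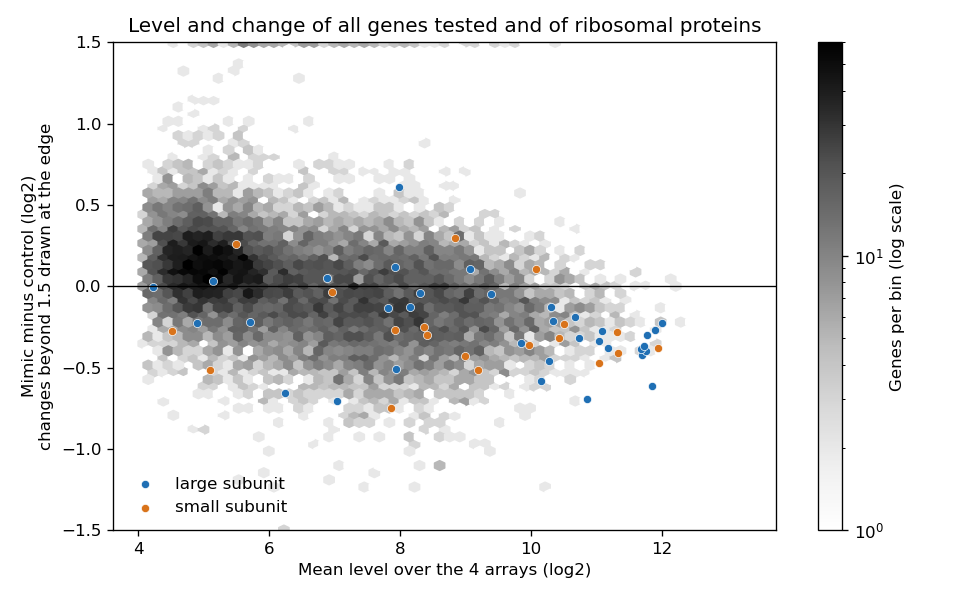
Mean level over the 4 arrays (x axis, log2) against change, mimic minus control (y axis, log2), for all 15719 genes tested (grey bins, darker where more genes fall, on a log scale) and for ribosomal proteins without the Y-linked copies (points). The grey cloud tilts below 0 at higher levels, and the points between 10 and 12 sit lower still, at a median of -0.34 against -0.17.

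Single probesets, each about an exon or part of an exon, showed the same shift. Of 219 probesets of the 55 ribosomal protein genes, 181 had a change below 0 and the median was -0.26 (-0.01 over all named probesets). The share below 0 over all named probesets was not computed. The mimic arrays both lay under the control pair in 138 (63.0%), against 23.6% of all named probesets, and above them in 14 (6.39%), against 20.6%. Probesets of 1 gene share the array and the RNA and are not independent. In the 64 brightest, at a mean level of 12 or above, 51 were lower without overlap (79.7%) and 1 was higher, while 38.2% and 19.4% of all named probesets at that level were. From 10 to 12, 48 of 60 were lower (80%) and none was higher, against 36.7% and 23.0%. Below the filter 2 of 13 were lower (15.4%) and 3 higher (23.1%), near the 12.9% and 20.3% of all named probesets there.

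**Figure D4:**
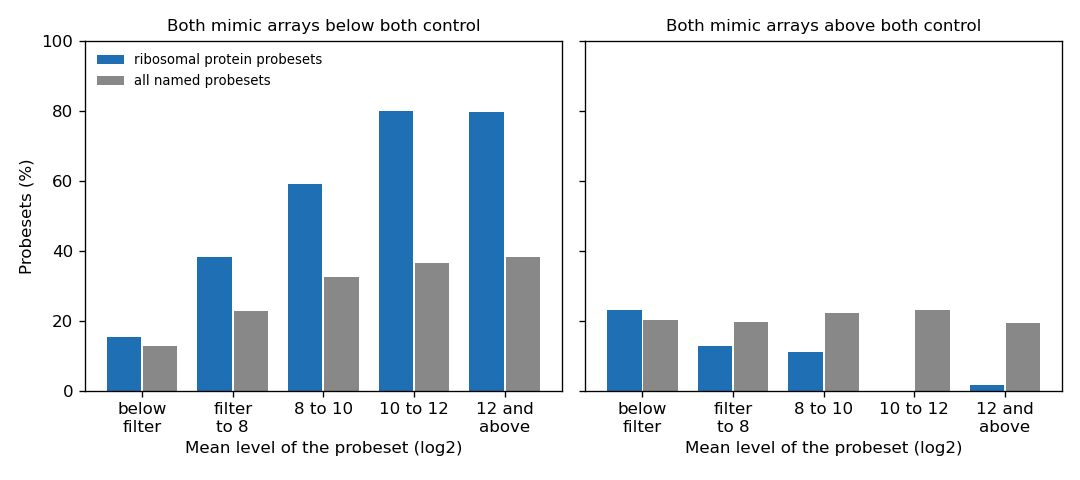
Share of probesets (y axis, percent) in which both mimic arrays lay below (left) or above (right) both control arrays, by mean log2 level of the probeset (x axis), for 219 ribosomal protein probesets (blue) and all named probesets (grey). The blue bars on the left climb from 15.4% below the filter to 80% between levels 10 and 12, where no blue bar stands on the right.

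Within a gene, dimmer probesets often showed the larger decrease. Of 21 members with probesets both at 12 or above and under 10 in the control arrays, 15 had a lower median change on the dim ones. In RPL28 the probesets at 12 or above had a median of -0.08 and those under 10 a median of -0.76, so its gene value of -0.32 averages unequal parts. RPL35 had -0.17 on its bright probesets and -1.78 on its dim probeset. RPS13 went the other way, with -0.54 on bright probesets and 0.20 on its dim probeset, where the groups overlapped. RPL14 had -0.73 on its bright probeset and -0.33 on dim ones. That bright probeset stands among genes of another chromosome, as described below, so the 2 values may not come from 1 gene. Its control arrays also lay far apart, at 13.005 and 14.204. Of 42 members read by more than 1 probeset, 20 had all probesets below 0 and 9 had all of them lower without overlap. Neither these counts nor the 15 of 21 were computed over all genes, so they are description only.

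Many copies of ribosomal protein genes are scattered over the genome, and some probesets named for a member stand elsewhere. Probeset identifiers follow the chromosomes, with 99.97% of neighbours among named probesets on the same chromosome in RefSeq (GRCh38.p14). Of the 228 member probesets, 19 (8.33%) stood among genes of another chromosome than the member's own, against 0.01% of other named probesets. They are all the probesets of RPL12, RPL21, RPS3A and RPS10 and 3 of 5 of RPL14, so these values cannot be assigned to the named gene with confidence. The 4 genes read only in this way had changes of -0.38, -0.38, -0.38 and -0.28. Without those probesets the median was -0.27, with 20 of 52 members lower at an unadjusted p under 0.05 (12.8% of all genes). Any ribosomal protein probeset may also pick up transcripts of near-identical copies.

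Other mRNAs of the TOP class were also mostly lower. Of a list of 30 translation factors and other TOP transcripts, 22 were tested, with a median change of -0.31. Of these, 20 had a change below 0 (49.7% of all genes). At an unadjusted p under 0.05, 8 were lower (12.8%) and none was higher (7.65%). The list's median control level was 10.07, and level matters here too. All genes with a mean level from 8 to 10 had a median change of -0.115, and 20.3% were lower at that p. From 10 to 12 the median was -0.173, and 24.1% were lower. The part of level in the changes of the list was not tested. EIF3L, a subunit of initiation factor eIF3, was the 1 gene of the list that passed the adjusted threshold. It had 9.49 and 9.61 with the mimic and 10.74 and 10.85 with the control, a difference of -1.24 (SE 0.127, adjusted p = 0.0137) or 2.37-fold. EIF3L missed the threshold without mimic replicate 1 (-1.18, adjusted p = 0.0771) and with its brightest probeset (-0.56, adjusted p = 0.236).

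Its partner subunit EIF3F had 9.54 and 9.59 against 10.29 and 10.34, or -0.75 (SE 0.118, adjusted p = 0.0502), just short of the threshold, which it passed with quantile normalization (adjusted p = 0.0383) and cyclic loess (adjusted p = 0.0425) but not with its brightest probeset (-0.30, adjusted p = 0.395) or without mimic replicate 1 or 2 (adjusted p = 0.298 and 0.223). It also passed without either control array, without a filter, above the table's median and with the intensity trend (adjusted p from 0.00198 to 0.0442). EEF2, the translocase of elongation, had 11.10 and 11.27 against 11.72 and 11.94, or -0.65 (SE 0.145, adjusted p = 0.0981). EEF2 passed without control replicate 1 (adjusted p = 0.0239), without a filter (0.0179) and with the intensity trend (0.00917), and its brightest probeset had -0.25. EIF2S3, a subunit of the factor that brings in the initiator tRNA, had 11.53 and 11.52 against 11.92 and 12.01, or -0.45 (SE 0.120, adjusted p = 0.132; 0.0153 with the intensity trend). FAU, which encodes a small subunit protein fused to a ubiquitin-like protein, had 10.25 and 10.05 against 10.29 and 10.57, or -0.28 (SE 0.158). NPM1, EIF4A2, EIF3A and HNRNPA1 had overlapping groups and changes between -0.05 and 0.03.

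Of 18 genes of the mTORC1 branch, 16 were tested and none passed the adjusted threshold. At an unadjusted p under 0.05, 6 were lower (12.8% of all genes) and 1 was higher (7.65%), with a median change of -0.23. Their median control level was 8.24. Of all genes with a mean level from 8 to 10, 20.3% were lower at that p, with a median change of -0.115. DEPTOR, which binds and inhibits mTOR, had 8.17 and 8.18 against 8.75 and 8.83, or -0.62 (SE 0.119, adjusted p = 0.0742). RPS6KB2, an S6 kinase, had 8.61 and 8.63 against 9.10 and 9.22, or -0.54 (SE 0.123, adjusted p = 0.100). AKT1S1, the inhibitory subunit PRAS40, and the kinase MTOR itself had -0.44 (SE 0.118) and -0.43 (SE 0.122), and MTOR had 0.14 with its brightest probeset and AKT1S1 -0.88 with the median of its probesets. These 4 genes passed with the intensity trend (adjusted p from 0.00914 for DEPTOR to 0.0428 for AKT1S1). DEPTOR and RPS6KB2 also passed without a filter (adjusted p = 0.0136 and 0.0263), and DEPTOR without control replicate 1 (adjusted p = 0.04). AKT1S1 had 7.43 and 7.41 against 7.83 and 7.89, and MTOR 7.83 and 7.81 against 8.20 and 8.31. The higher gene was DDIT4, an mTORC1 inhibitor induced by stress, with 6.67 and 7.05 against 6.35 and 6.37, or 0.50 (SE 0.166, adjusted p = 0.184), named after its value was seen. LARP1, which binds TOP mRNAs, had 0.04 (SE 0.128). Transcript levels say nothing of the activity of these kinases.

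**Figure D5:**
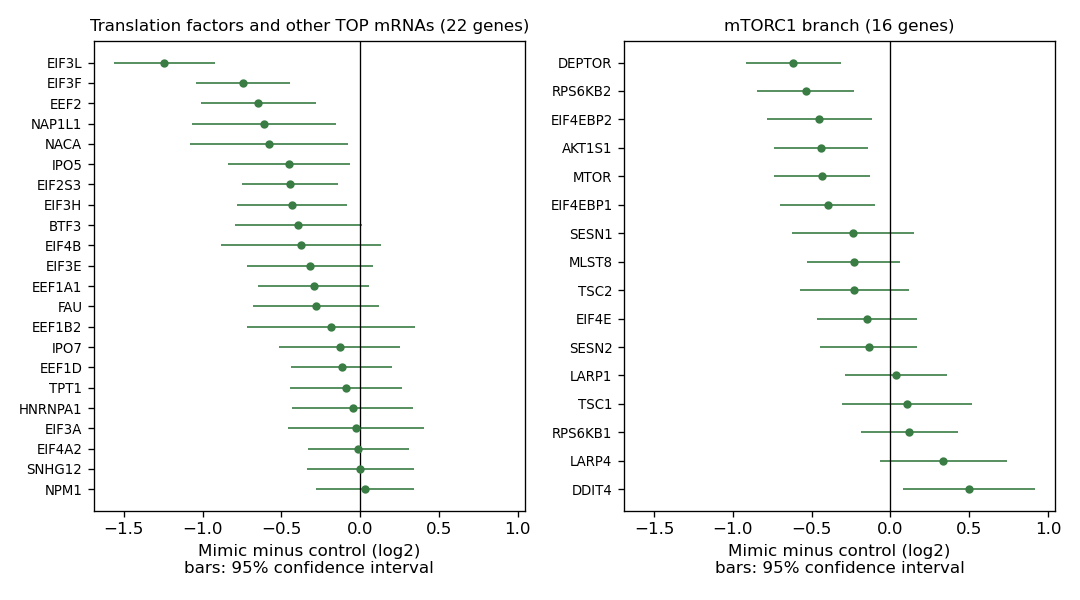
Change, mimic minus control on the log2 scale (x axis), with limma's 95% confidence interval for 22 translation factors and other TOP mRNAs (left) and 16 genes of the mTORC1 branch (right). EIF3L lies furthest to the left at -1.24, and DDIT4 furthest to the right at 0.50.

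The labelled cell type was borne out by its markers. The 10 luminal genes, among them KRT8, ESR1 and GATA3, had control levels from 8.97 to 12.40, and 9 markers of basal, stromal and blood cells had 4.52 to 7.38. The luminal markers were also lower: 8 of 10 had a change below 0 (49.7% of all genes), 4 of them at an unadjusted p under 0.05 (12.8%), with a median of -0.22. Their mean level was 9.90 and 9.99 with the mimic and 10.09 and 10.23 with the control. Level matters here as well. All genes with a mean level from 8 to 10 had a median change of -0.115, and 20.3% were lower at that p. From 10 to 12 the median was -0.173, and 24.1% were lower. The basal marker TP63 had 5.38 and 5.36 with the mimic against 4.72 and 4.46, a difference of 0.78 (SE 0.142, adjusted p = 0.0671). It was the 1 of 9 markers of other cells that was higher at an unadjusted p under 0.05 (7.65% of all genes). All 4 of its values lay at background level, within the 4.27 to 6.25 of the liver and neuron genes in control arrays. The list of other cells had 1 of 9 below 0 (49.7% of all genes) and a median of 0.14. Its mean levels were 5.98 and 5.89 with the mimic and 5.88 and 5.65 with the control. These markers lay under level 8, where the median change over all genes was 0.05. The part of the luminal and other markers in the ribosomal protein result was not tested, nor was the part of level in their changes. Across all probesets the arrays correlated at 0.985 within mimic, 0.984 within control and 0.966 to 0.973 between groups.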

How the data were processed

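The authors deposited log2 values per exon-level probeset for 4 arrays. The submitters' processing notes name Partek, RMA and hg18, and give neither versions nor the sequence of steps. The interquartile range was 4.18 and 4.32 on the mimic and 4.25 and 4.52 on the control arrays, so the deposited log2 values were not on 1 common distribution. Symbols came from GEO's platform annotation, updated through RefSeq synonyms; 216780 probesets carried 1 symbol, 2335 several and 13364 none.

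For each gene, single-symbol probesets were averaged on the log2 scale where their own mean reached the table's 25th percentile (4.08), which left 163774 probesets. Mimic and control were compared over all 15719 genes with limma 3.58.1 (lmFit, eBayes, two-sided, Benjamini-Hochberg, threshold 0.05, 2 residual degrees of freedom, 5.29 with the prior) in R 4.3.3. The same fit was also run on simulated data. Standard errors come from the moderated fit, and SDs from 2 arrays. A small number of arrays limits precision.

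The members and lists were chosen with earlier results of these data known. Array values are given for the 10 lower and 4 higher ribosomal proteins with the smallest p (RPS19BP1, no ribosomal protein, and the Y-linked copies left out), for members with known extra roles, for paralogs, and for the 4 genes with the smallest p of each other list and FAU. Alternatives were a replicate block, leaving out each array, quantile and cyclic loess normalization, no or a stricter filter, the median or brightest probeset and an intensity trend. Leaving out probesets that stand among genes of another chromosome, keeping only probesets past the filter and recounting members without overlap were added after seeing the data.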

Additional observations from a re-analysis of the deposited data

How the results depend on the processing

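The count of lower members at the adjusted threshold, 0 in the fit described, was 0 with the replicate block, cyclic loess, the median or brightest probeset and without displaced probesets, and ranged from 0 to 8 with 1 array left out. It was 1 with quantile normalization, 9 without a filter, 1 above the table's median and 19 with the intensity trend. The unadjusted count of 22 ranged from 7 to 20 with 1 array left out, and was 11 with the brightest probeset. The median of -0.28 ranged from -0.30 to -0.26 with 1 array left out and was -0.25 with cyclic loess, -0.32 above the table's median and -0.20 with the brightest probeset. It was below 0 in every setting run. The count of lower TOP mRNAs, 8, ranged from 3 to 9 with 1 array left out and was 4 with the brightest probeset and 13 with the intensity trend. That of the mTORC1 branch, 6, ranged from 2 to 5 and was 3 with the brightest probeset. The share of all genes lower at an unadjusted p under 0.05, 12.8%, moved with the setting as well. With 1 array left out it ran from 5.73% (mimic replicate 1) to 12.9% (control replicate 1). It was 6.04% with the brightest probeset and 16.3% with the intensity trend. The counts of both lists have to be read beside these shares. Members lower without overlap numbered 42 of 56 (29.5% of all genes), and 35 to 42 in the other settings recounted, of 49 to 57 tested. In those settings the share of all genes ran from 21.2% with the brightest probeset to 34.6% above the table's median. For probesets the count was 144 of 228 (23.6% of all named probesets), and 128 to 142 in the others, of 187 to 228. There the share of all named probesets ran from 22.4% with cyclic loess to 31.3% above the table's median. The causes of these differences were not tested.

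The design text speaks of pairs without saying what a replicate number marks, and with 2 pairs the numbers were taken as names. Deviations of same-numbered arrays from the group means correlated at 0.435 over genes. With the replicate block 29 members were lower at an unadjusted p (18.9% of all genes, against 12.8% without it), 11 TOP mRNAs and 6 mTORC1 genes, and EIF3F passed (adjusted p = 0.0483).

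Signs changed for RPS19 (-0.081 without control replicate 2 to 0.6 without control replicate 1; -0.045 without a filter) and RPL37A (-0.057 to 0.297 over the same; -0.162 with the median of probesets). They also changed for RPL3L (-0.078 to 0.139 with 1 array left out; -0.013 with quantile normalization; -0.01 without a filter), RPL36AL (-0.159 to 0.06 with 1 array left out; 0.024 with cyclic loess) and MTOR (0.139 with the brightest probeset). Dim signal limits RPL10, RPS4X, RPS15, RPS19 and RPL41.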

Other observations

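RPS19BP1, which matches the naming rule but encodes a binding protein, had 8.37 and 8.41 with the mimic and 8.79 and 9.08 with the control, a difference of -0.54 (SE 0.148, limma adjusted p = 0.135). All 6 of its probesets were below 0. RPL13P5, the pseudogene listed as RPL13L, had a difference of -0.04 (SE 0.118) at background level.

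The 3 pseudogene symbols that the rule left out were measured at low levels. RPL32P3, with 6 probesets, had a difference of 0.08 (SE 0.124), and RPLP0P2, with 4, had 0.01 (SE 0.158). RPSAP15, with 2, had -0.32 (SE 0.427), and its arrays lay far apart within each group.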
